A study of Rattus norvegicus with 32 samples.

Results

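The comparison described here is the diet by insulin interaction in the rat hippocampus, that is, the insulin difference in pups of iron-deficient dams (ID insulin minus ID control) minus the insulin difference in pups of iron-sufficient dams (IS insulin minus IS control). Every library with a label for diet and treatment was taken, which was 32 of the 32 libraries, each made from 1 hippocampus of 1 wild-type rat pup. There were 8 IS control, 9 ID control, 7 IS insulin and 8 ID insulin libraries. Dams of the ID groups ate a purified diet with 3 to 6 ppm iron between gestational day 3 and postnatal day 7, and the diet of the IS dams is not described. Insulin was given through the nose between postnatal days 8 and 21, and what the control pups received in its place is not given. Pups were collected on postnatal day 7 or 21, with no day assigned to a library, so for the control groups the age cannot be read from the labels and, if it was day 7, insulin and age cannot be told apart. Litter is not stated either, so a p-value here speaks only of the spread from pup to pup. The sample titles hold a first number of unstated meaning, which was 71 in IS control, 72 in IS insulin, 73 in ID insulin, and 69 in 5 and 70 in 4 ID control libraries. Group and title number cannot be told apart except within ID control.

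An interaction asks whether a treatment acts differently in different backgrounds, and a gene can show one with or without a treatment effect in either background alone. Insulin binds its receptor tyrosine kinase and, through PI3 kinase, PDK1 and Akt, reaches mTOR complex 1, which releases protein synthesis from its repressors. Iron is needed for heme, for iron-sulphur enzymes of the respiratory chain, for DNA synthesis and for lipid synthesis by oligodendrocytes, and the hippocampus of young rodents is known to be sensitive to its lack.

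Neuronal (Rbfox3, Snap25, Syn1) and hippocampal genes (Prox1, Calb1, Wfs1, Neurod2) were present in every library, with Prox1, a transcription factor of dentate granule cells, between 61.8 and 134.7 CPM, that is, counts scaled to the library's total. Genes of neighbouring tissue varied. The summed level of 15 choroid plexus genes was 147.8 to 4131 CPM across IS control libraries, 1591 to 6788 across ID control, 183.5 to 5377 across IS insulin and 494.6 to 7272 across ID insulin, and 14 of the 15 had counts in every library. Blood genes summed to 774.5 to 2547, 1064 to 2492, 1285 to 3099 and 1053 to 4620 CPM in the same order of groups. Prkcd of the thalamus reached 172.1 CPM and Baiap3, on the striatum and hypothalamus list, 129.7 CPM in ID insulin, against at most 37.8 and 25.2 CPM in the other groups, while Pou4f1 of the habenula was at 0 in 19 libraries and Isl1 of the striatum in 14. ID insulin replicate 3 had the highest mitochondrially encoded share of its group (11.99% of counts) and the highest choroid plexus, myelin and ribosomal protein sums. A fit with the means of 4 of these lists (choroid plexus, blood, meninges and fibroblast, thalamus and habenula) as covariates kept 11 of the 35 named calls, and losses under it are given with the genes as those with the tissue covariates. Beyond that fit and those without single libraries, the part of these tissues was not tested. Sex is not in the labels, and the 3 tested Y-linked genes, whose level follows it, had a median interaction of 0.77 (0.64 in ID and -0.18 in IS pups) with 0 called. With their mean as a covariate 113 genes were called, 107 of them among the 145 described next, and 31 of the 35 named calls were kept. The titles also hold a second number of unstated meaning, and with it as a replicate block 5 of the 35 were kept. These were Slc39a12, Mki67, Gpr17, Thrsp and Prss12, and the 30 losses under the block are not repeated with each gene. Library totals were 19619345 to 28062630 counts. In a whole tissue, fewer cells of a type and less RNA per cell cannot be told apart.

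The interaction passed the test in 145 of 15439 tested genes, 0.939%. A gene is called here when its adjusted p (edgeR quasi-likelihood F-test, Benjamini-Hochberg over all tested genes) is under 0.05. It was positive in 79 genes (0.512%), meaning a higher insulin difference in ID than in IS pups, and negative in 66 (0.427%). Unadjusted p under 0.05 was found in 2646 genes, 17.1%. For comparison, insulin against control called 589 genes (3.82%) in ID pups, 302 higher (1.96%) and 287 lower (1.86%). In IS pups it called 19 genes (0.123%), 11 higher (0.0712%) and 8 lower (0.0518%). These 2 comparisons share no library, and 0 genes were called in both, which is 0% of each list. Across the 15439 genes their log2 fold changes had Pearson's r of 0.145 and Spearman's rho of 0.0729, as a description over genes measured in the same tissue. The interaction uses the libraries of both, so its calls are not independent of theirs. It is also estimated less sharply, with a median standard error (SE) of 0.12 on the log2 scale against 0.08 in ID and 0.09 in IS pups.

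The called genes were mostly ones in which insulin and control differed in opposite directions in the 2 diets. This held for 79 of the 79 genes with a positive and 64 of the 66 with a negative interaction, against 7376 of all tested genes (47.8%). The contrast selected these genes for a large difference between the 2 insulin effects, so the count is a description. The exceptions were Sun2 and Prss12, in which both insulin differences were negative, and both are singled out after their values were seen. The median absolute log2 fold change of the called genes was 0.26 in ID and 0.20 in IS pups, against 0.09 for all tested genes in each. The larger of the 2 effects was in ID pups in 85 and in IS pups in 60 genes. Most interactions were small: 85 of the 145 were under 0.5 and 17 were at least 1 in absolute log2 fold change.

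Seen by group means, the called genes had a crossed pattern. The contrast that called these genes equals the diet difference with insulin minus that without, which favours such an order. The counts of group order are thus a description, and they were not made over all tested genes. In 79 of 79 genes with a positive interaction, ID control lay below IS control and ID insulin above IS insulin. In 62 of 66 genes with a negative interaction both orders were turned around. Among the positive genes, ID insulin had the highest mean in 63 and IS control in 16, and the lowest mean was that of IS insulin in 56 and of ID control in 23. Among the negative genes, ID insulin had the lowest mean in 48 and IS control in 18, and the highest mean was that of ID control in 33 and IS insulin in 33. The group farthest from the mean of the other 3 was ID insulin in 61, IS insulin in 47, ID control in 25 and IS control in 12 of the 145 genes. Groups overlapped in most of them: all 8 ID insulin libraries lay beyond all ID control libraries in 12 of the called genes (31 of all tested), and all 7 IS insulin beyond all IS control libraries in 8 (57 of all tested).

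**Figure D1:**
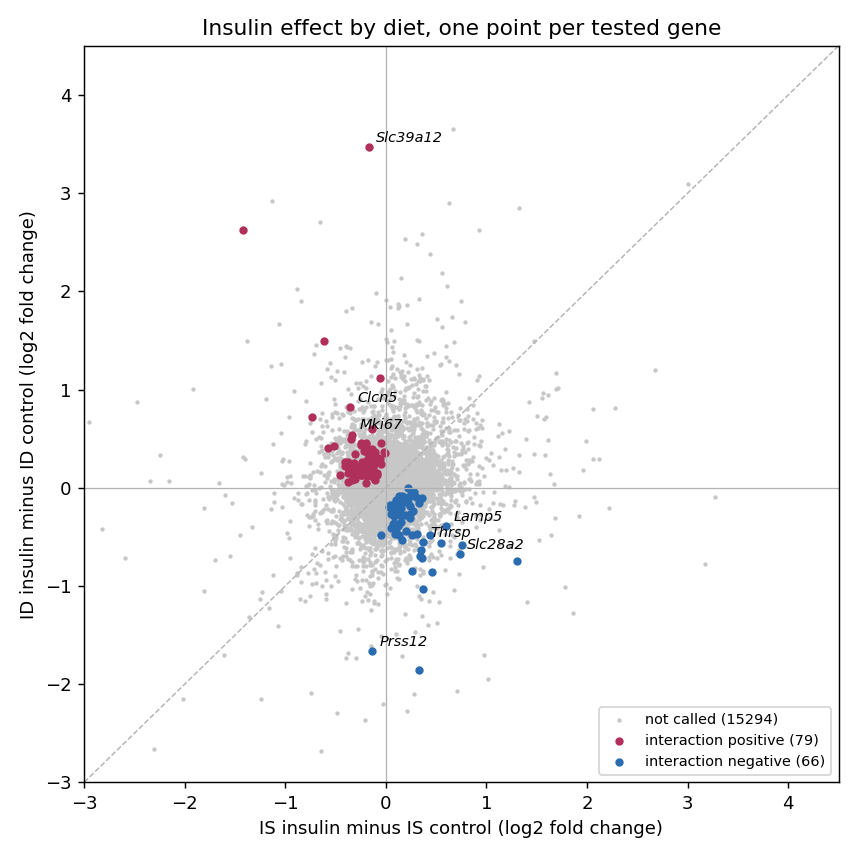
Log2 fold change of insulin against control in IS pups (x axis) and in ID pups (y axis), 1 point per tested gene, with the 79 positive interactions in red, the 66 negative ones in blue and equal effects on the dashed line. Most of the called genes sit in the upper left and lower right quadrants, and 9 genes lie outside the axes, 0 of them called.

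Genes of dividing cells and young neurons held 3 of the called genes. Mki67 encodes Ki-67, a nuclear protein of proliferating cells, Cenpf a kinetochore protein of late cell cycle phases, and Dcx doublecortin, which binds microtubules in migrating young neurons. Because Mki67 and Cenpf moved together, their promoters are shown, as RefSeq gives them for assembly GRCr8, 250 bases before and 30 after the annotated start, read on the gene's strand. Capitals mark the cell cycle homology region (CHR, TTTGAA) and the CCAAT box, both of which occur in promoters of late cell cycle genes, on either strand. Mki67 lies at chr1:199952564-199952843 and Cenpf at chr13:103760857-103761136, both on the minus strand.
Mki67: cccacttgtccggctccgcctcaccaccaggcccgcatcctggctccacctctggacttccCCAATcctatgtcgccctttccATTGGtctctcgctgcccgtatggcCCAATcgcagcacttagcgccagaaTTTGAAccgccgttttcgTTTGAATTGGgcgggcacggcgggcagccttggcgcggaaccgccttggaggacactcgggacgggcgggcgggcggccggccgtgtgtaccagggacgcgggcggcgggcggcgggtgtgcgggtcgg
Cenpf: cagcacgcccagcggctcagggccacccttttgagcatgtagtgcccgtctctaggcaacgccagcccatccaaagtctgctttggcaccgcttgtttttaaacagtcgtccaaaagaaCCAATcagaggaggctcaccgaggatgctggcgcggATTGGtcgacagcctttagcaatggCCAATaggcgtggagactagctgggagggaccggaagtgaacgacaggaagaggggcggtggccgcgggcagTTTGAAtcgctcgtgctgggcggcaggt
The Mki67 window held 2 CHR and 4 CCAAT matches, 1 pair of which overlapped, and the Cenpf window 1 and 3 with none overlapping. A CHR match was found in 7 and a CCAAT match in 9 of the 11 proliferation genes with a promoter in the table, called or not, against 17.2% and 36.5% of 27457 promoters. A match is a description of letters, not of binding.

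Mki67 ranged from 7.12 to 9.76 CPM (median 8.66) in IS control and from 5.16 to 9.33 CPM (median 7.21) in ID control. It was 4.90 to 8.91 CPM (median 6.42) in IS insulin and 9.47 to 11.998 CPM (median 10.6) in ID insulin. All 8 ID insulin libraries were above every ID control library, while 5 of 7 IS insulin libraries were below every IS control library. It was higher with insulin in ID pups by 0.54 (log2 fold change, SE 0.10, adjusted p = 0.00254) and the difference was -0.34 in IS pups (SE 0.11, adjusted p = 0.129). The interaction was 0.88 (SE 0.14, adjusted p = 0.00433), and it was called in all 13 alternative settings and in all 32 fits with 1 library left out.

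Cenpf was a gene of low level, at 3.63 ± 0.326, 3.50 ± 0.639, 2.88 ± 0.455 and 4.93 ± 1.03 CPM in IS control, ID control, IS insulin and ID insulin (SD, n = 8, 9, 7 and 8). Its lowest and highest libraries were 2.37 and 4.33 CPM in ID control and 3.68 and 6.64 CPM in ID insulin, so these groups overlapped, with 5 of 8 ID insulin libraries above all of ID control. The interaction was 0.84 (SE 0.18, adjusted p = 0.0242). The call of Cenpf was lost with the tissue covariates (0.80, adjusted p = 0.116) and with the ID control libraries of title number 69 alone (0.77, adjusted p = 0.0776). Dcx was 99.7 to 121 CPM (median 110.3) in ID insulin and 81.4 to 116 CPM (median 102.1) in IS control. It was 74.1 to 109 CPM (median 90.9) in ID control and 78.2 to 99.0 CPM (median 90.1) in IS insulin. Every ID insulin library was thus above every IS insulin library, and the 2 control groups overlapped. The contrast that called Dcx favours such a separation, and it was not counted over all tested genes. The interaction of Dcx was 0.44 (SE 0.09, adjusted p = 0.0217), made of 0.27 in ID pups (adjusted p = 0.0106) and -0.17 in IS pups (adjusted p = 0.193). Dcx was not called with title number 70 alone (0.35, adjusted p = 0.0653).

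Of the 22 tested genes on the immature neuron and proliferation list, 3 were called with a positive interaction, 0 with a negative one, and 19 did not pass. The share of positive calls over all tested genes was 0.512%. The median interaction was 0.33, against -0.01 over all tested genes, and 17 of the 22 values were above 0, against 7292 of 15439. Genes of a list come from the same libraries and can vary together. Counts of signs, here and on the lists below, are therefore descriptions. The median insulin difference was 0.25 in ID and -0.11 in IS pups. Values that did not pass included Top2a, the topoisomerase of mitotic chromosomes, at 0.50 (adjusted p = 0.115), the mitotic kinesin gene Cenpe at 0.41 (0.182) and the cyclin gene Ccnb1 at 0.42 (0.285). The replication genes Mcm2, Mcm6 and Pcna stood at 0.10, 0.16 and -0.06. Among genes of young neurons, Calb2, the calcium-binding protein calretinin, was at 0.73 (0.0967), the transcription factor gene Sox11 at 0.46 (0.179) and Neurod1 at -0.16 (0.656). Without ID insulin replicate 3 the median was 0.28 and the same 3 genes were called, and a fit with tissue list means added as covariates gave 0.29 with Dcx and Mki67 called.

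The oligodendrocyte lineage was represented by Gpr17, a G protein-coupled receptor of precursors committed to become oligodendrocytes, which had the lowest p of all tested genes. It ranged from 94.8 to 105 CPM (median 98.9) in IS control and from 76.1 to 99.5 CPM (median 86.4) in ID control. It was 79.0 to 94.2 CPM (median 89.4) in IS insulin and 94.8 to 119 CPM (median 105.8) in ID insulin. All 7 IS insulin libraries were below every IS control library, and 6 of 8 ID insulin libraries were above every ID control library. The insulin difference was 0.28 in ID pups (SE 0.05, adjusted p = 0.00232) and -0.19 in IS pups (SE 0.05, adjusted p = 0.0999), and the interaction was 0.47 (SE 0.07, adjusted p = 0.00244). It was called in all 13 settings and all 32 fits with 1 library left out.

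The other 10 precursor genes tested did not pass. Pdgfra, the PDGF receptor by which these cells are recognised, stood at 0.13 (adjusted p = 0.419), Cspg4 at 0.11 (0.522) and the proteoglycan gene Vcan at 0.28 (0.0917), and the list's median was 0.11. Of 25 myelin and oligodendrocyte genes 0 were called positive and 1 was called negative, and the median was 0.11. Over all tested genes 0.512% were called positive and 0.427% negative. The called myelin gene was Mal, a proteolipid of compact myelin, at 514 ± 76.9, 536 ± 73.7, 614 ± 104 and 384 ± 75.5 CPM in IS control, ID control, IS insulin and ID insulin (SD, n = 8, 9, 7 and 8). Its interaction was -0.74 (SE 0.16, adjusted p = 0.0242), with -0.48 in ID pups (adjusted p = 0.0116) and 0.26 in IS pups (adjusted p = 0.259). Mal did not pass with either part of ID control, at -0.81 with title number 69 (adjusted p = 0.0577) and -0.63 with 70 (adjusted p = 0.0819). On the whole list 19 of 25 values were above 0, against 7292 of 15439 tested genes. This lean depended on the ID control libraries used. With title number 69 alone the list's median was -0.02 and 0 genes were called. With 70 alone it was 0.28, and Gjc3 and Enpp6 were called positive, against 68 of 15739 genes then tested. The basic protein gene Mbp was at 0.17 (adjusted p = 0.594), and its insulin difference did not pass in either diet (0.25 in ID and 0.08 in IS pups).

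Slc39a12, which encodes the zinc importer ZIP12 of the brain, had the largest positive interaction among the named genes. It was between 2.11 and 3.95 CPM (median 2.84) in all 9 ID control libraries and between 19.4 and 43.2 CPM (median 34.8) in all 8 ID insulin libraries. The IS groups covered nearly all of this span, with 2.97 to 38.4 CPM (median 18.2) among controls and 1.74 to 41.3 CPM (median 15.3) among insulin-treated pups. IS control replicate 6 (2.97 CPM) and IS insulin replicates 4 (3.45 CPM) and 7 (1.74 CPM) were as low as the ID control libraries. The insulin difference was 3.47 in ID pups (SE 0.44, adjusted p = 2.56e-05) and -0.17 in IS pups (SE 0.39, adjusted p = 0.869), giving an interaction of 3.64 (SE 0.60, adjusted p = 0.00433). It was called in all 13 settings and in all 32 fits with 1 library left out, over which it lay between 3.44 and 4.31. With all libraries none of the other 17 astrocyte genes and 20 zinc and metal transport genes tested on its lists was called, and the list medians were -0.03 and -0.03. Over all tested genes 0.512% were called positive. Without ID insulin replicate 3, S100b, Aldoc and Ntsr2 of the astrocyte list and Mt3 of the zinc list were called negative, against 1.50% of genes then tested. Ntsr2 was also called negative with title number 70 alone.

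Prss12 stood at the other end. It encodes neurotrypsin, a serine protease that cleaves agrin at synapses. Its lowest, median and highest libraries were 6.30, 11.04 and 15.9 CPM in IS control and 9.86, 17.0 and 20.4 CPM in ID control. They were 4.04, 10.6 and 12.9 CPM in IS insulin and 4.33, 4.64 and 6.69 CPM in ID insulin. All 8 ID insulin libraries were below every ID control library, whereas the IS groups overlapped widely. The interaction was -1.53 (SE 0.27, adjusted p = 0.00520), with -1.67 in ID pups (adjusted p = 5.69e-06) and -0.14 in IS pups (adjusted p = 0.771). It was called in all 32 fits with 1 library left out, but not with the tissue list means as covariates (-1.28, adjusted p = 0.116) or with the ID control libraries of title number 69 alone (-1.40, adjusted p = 0.0610).

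**Figure D2:**
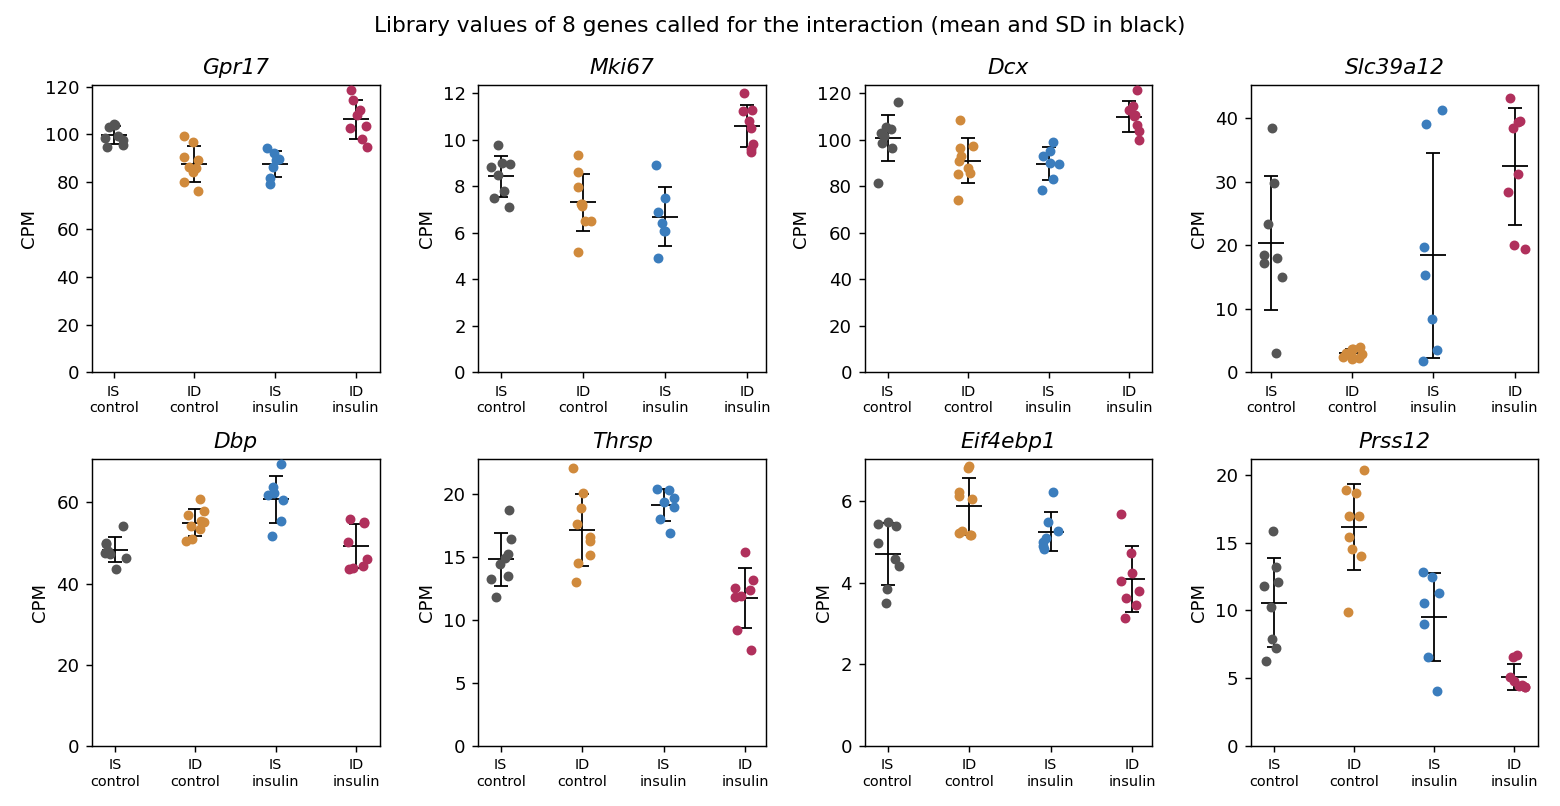
CPM in each of the 32 libraries (points) for 8 genes called for the interaction, by group, with the group mean and SD in black and axes starting at 0. In Gpr17, Mki67 and Dcx the ID insulin group is the highest, in Thrsp, Eif4ebp1 and Prss12 it is the lowest, and in Slc39a12 the ID control libraries all lie under 3.96 CPM.

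Insulin signalling itself supplied 2 of the called genes, with opposite signs. They were 1 positive and 1 negative of 36 tested, against 0.512% and 0.427% of all tested genes. Pdpk1 encodes PDK1, the kinase that phosphorylates Akt, and was at 51.8 ± 7.21, 44.7 ± 4.94, 42.8 ± 4.62 and 50.4 ± 3.36 CPM in IS control, ID control, IS insulin and ID insulin (SD, n = 8, 9, 7 and 8). The interaction was 0.45 (SE 0.11, adjusted p = 0.0325), and neither insulin difference passed on its own (0.17 in ID, adjusted p = 0.179, and -0.28 in IS pups, adjusted p = 0.0999). Its call was kept in 22 of 32 fits with 1 library left out. It was lost with the tissue covariates (0.43, adjusted p = 0.148) and with title number 69 (0.50, adjusted p = 0.0776) or 70 alone (0.40, adjusted p = 0.0847).

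Eif4ebp1 encodes 4E-BP1, the translation repressor that mTOR complex 1 phosphorylates. It ran from 3.51 to 5.48 CPM (median 4.78) in IS control and from 5.16 to 6.86 CPM (median 6.06) in ID control. It ran from 4.82 to 6.22 CPM (median 5.09) in IS insulin and from 3.13 to 5.68 CPM (median 3.91) in ID insulin. In ID pups 7 of 8 insulin libraries were below all control libraries, and in IS pups 2 of 7 were above all of them. The interaction was -0.69 (SE 0.15, adjusted p = 0.0262), made of -0.53 (adjusted p = 0.00523) and 0.16 (adjusted p = 0.490). It was lost without IS insulin replicate 2, at -0.65 (adjusted p = 0.0558), and kept in the 31 other such fits. Eif4ebp1 was also not called with the tissue covariates (-0.66, adjusted p = 0.135) or with title number 69 alone (-0.62, adjusted p = 0.0973).

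The remaining 34 of 36 insulin, IGF and mTOR genes did not pass, and the median interaction was 0.08. The receptor genes Insr and Igf1r stood at 0.14 (adjusted p = 0.396) and 0.11 (0.783). The level of Insr was 49.2 ± 3.60, 49.0 ± 4.68, 43.9 ± 4.09 and 48.4 ± 3.89 CPM in IS control, ID control, IS insulin and ID insulin. Igf1 was at 0.50 (0.106), the kinase gene Gsk3b at 0.35 (0.106), Rictor of mTOR complex 2 at 0.35 (0.103), Akt1 at -0.02 and Mtor at 0.10. Gsk3b was added to the called genes without ID insulin replicate 3.

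The circadian clock held 2 called genes of 16 tested, both negative, against 0.427% negative calls over all tested genes. Dbp encodes a transcription factor that the clock drives and that binds D-boxes. It was 43.6 to 54.2 CPM (median 47.9) in IS control and 50.5 to 60.9 CPM (median 55.3) in ID control. It was 51.7 to 69.5 CPM (median 61.9) in IS insulin and 43.5 to 55.9 CPM (median 48.2) in ID insulin. In IS pups 6 of 7 insulin libraries were above every control library, and in ID pups 5 of 8 were below every control library. Dbp was higher with insulin in IS pups by 0.33 (SE 0.06, adjusted p = 0.0282), the difference in ID pups was -0.16 (adjusted p = 0.118), and the interaction was -0.49 (SE 0.09, adjusted p = 0.00520). It was called in all 32 fits with 1 library left out, but not with title number 69 alone (-0.45, adjusted p = 0.0556).

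Nr1d1 encodes the heme-binding repressor REV-ERB alpha and was at 63.7 ± 5.18, 70.3 ± 8.75, 70.3 ± 5.12 and 58.2 ± 6.92 CPM in IS control, ID control, IS insulin and ID insulin. Its interaction was -0.41 (SE 0.10, adjusted p = 0.0392), a call kept in 15 of 32 fits with 1 library left out. Nr1d1 was not called with the tissue covariates (-0.34, adjusted p = 0.214), with title number 69 alone (-0.30, adjusted p = 0.163) or with no filter on low counts (-0.41, adjusted p = 0.0553). The other 14 of 16 clock genes did not pass, and the median was -0.12. Nr1d2 was at -0.32 (0.0913), Per2 at -0.26 (0.176), Per1 at -0.31 (0.211) and Ciart at -0.44 (0.211). The activators Clock and Arntl stood at 0.14 and -0.02. In the promoter windows of 13 of these genes the E-box CACGTG, read the same on both strands, occurred in 4 (6.39% of 27457 promoters) and the D-box TTATGTAA, on either strand, in 1 (0.863%). The windows of Dbp and Nr1d1 held neither. The hour of collection is not given in the labels, and its part was not tested.

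Genes of blood vessels held 3 negative calls among 17 tested, with 0 positive and a median of -0.22. Over all tested genes 0.427% were called negative, and the median was -0.01. Vtn encodes vitronectin, an adhesion glycoprotein that brain pericytes express, and was at 30.5 ± 3.94, 37.5 ± 3.61, 33.3 ± 4.72 and 26.9 ± 3.63 CPM in IS control, ID control, IS insulin and ID insulin (SD, n = 8, 9, 7 and 8). All 8 ID insulin libraries, at most 31.37 CPM, were below every ID control library, at least 31.43 CPM. The interaction was -0.61 (SE 0.13, adjusted p = 0.0236). Itm2a, a membrane protein gene of endothelium, was at -0.41 (SE 0.09, adjusted p = 0.0236), with 7 of 8 ID insulin libraries below all ID control libraries. Slco1a4, an organic anion transporter gene of the blood-brain barrier, was at -0.50 (SE 0.12, adjusted p = 0.0324), a call kept in 24 of 32 fits with 1 library left out.

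Endothelial genes that define the cell type did not pass: Cldn5, a tight junction claudin, stood at -0.25 (adjusted p = 0.368), Cdh5, VE-cadherin, at -0.22 (0.495), and the VEGF receptor gene Flt1 at -0.27 (0.403). Values under 0 were found in 15 of the 17 genes, against 8147 of 15439 tested genes. The list summed to 560.3 to 789.7 CPM across IS control libraries, 774.5 to 868.7 across ID control, 660 to 796 across IS insulin and 557.7 to 839 across ID insulin. The lowest sum of ID insulin was that of replicate 3, without which the same 3 genes were called and the median was -0.18. Once tissue list means were added as covariates, 0 of the 17 were called and the median was -0.33. With title number 69 alone Vtn (-0.61), Itm2a (-0.35) and Slco1a4 (-0.50) had adjusted p of 0.0680, 0.0963 and 0.101, and Slco1a4 also missed with number 70 alone (-0.51, adjusted p = 0.0769).

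Among genes of energy metabolism, 2 of 34 nuclear respiratory chain genes were called, both negative, against 0.427% negative calls over all tested genes. Of the 34 values 32 were under 0, against 8147 of 15439 tested genes (median -0.11, all tested genes -0.01). These values share libraries and are not independent, so the count is a description. The 2 called genes encode subunits of complex I. Ndufb10 was at 71.5 ± 5.05, 77.1 ± 5.66, 73.9 ± 5.04 and 64.1 ± 2.62 CPM in IS control, ID control, IS insulin and ID insulin, an interaction of -0.31 (SE 0.07, adjusted p = 0.0245). It was lost without IS insulin replicate 2 (-0.30, adjusted p = 0.0519) and with title number 69 alone (-0.30, adjusted p = 0.0840). Ndufa10 was at 100.4 ± 6.98, 107 ± 7.26, 106 ± 3.22 and 95.7 ± 4.73 CPM, with -0.25 (SE 0.06, adjusted p = 0.0439) and a call kept in 12 of 32 fits. Ndufa10 was also lost with the tissue covariates (-0.26, adjusted p = 0.116), title number 69 alone (-0.18, adjusted p = 0.180) and no filter on low counts (-0.24, adjusted p = 0.0748). Cox4i1 of complex IV was at -0.30 (0.0647) and Ndufa9 at -0.21 (0.0823), and the iron-sulphur subunit genes Sdhb and Uqcrfs1 were at -0.01 and -0.04.

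The 13 mitochondrially encoded genes had a median of -0.14 and 0 calls. The next 2 lists held 1 negative call each, against 0.427% negative calls over all tested genes. Ldhb, which encodes the heart-type subunit of lactate dehydrogenase, was the 1 called of 17 glycolytic genes, at -0.24 (SE 0.06, adjusted p = 0.0307) with a median of -0.10 for the list. Mxi1, a Myc antagonist induced by low oxygen, was the 1 called of 19 hypoxia-inducible genes, at -0.31 (SE 0.06, adjusted p = 0.0181), where 6 of 8 ID insulin libraries were below all ID control and 6 of 7 IS insulin libraries above all IS control libraries. The call of Ldhb was kept in 22 of 32 fits with 1 library left out, and that of Mxi1 in 32. Neither passed with the tissue covariates (Ldhb -0.25, adjusted p = 0.134; Mxi1 -0.27, adjusted p = 0.109). With title number 69 alone Ldhb was at -0.25 (adjusted p = 0.0973) and Mxi1 at -0.33 (adjusted p = 0.0577), and with 70 alone at -0.23 (adjusted p = 0.0676) and -0.29 (adjusted p = 0.0509). Ldhb was also lost with no filter on low counts (adjusted p = 0.0548).

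Calls on the metabolic lists depended on ID insulin replicate 3, which had the highest respiratory chain and ribosomal protein sums of its group (7011 and 6800 CPM). Without it 594 genes were called for the interaction, among them 145 of the 145, which is 3.85% of the 15427 then tested (2.35% positive and 1.50% negative). The list counts that follow are read against these shares. The respiratory chain list then had 6 negative calls, glycolysis 3, and cytosolic ribosomal proteins 8 of 35, against 0 of 35 with all libraries. The median of the ribosomal list was -0.16 with all libraries and -0.23 without this one. On the glutamatergic list the calls became 4 positive and 1 negative, with the NMDA receptor genes Grin2a and Grin2b among the positive ones beside Grm5.

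At synapses, 1 of 25 glutamatergic genes was called with all 32 libraries, and the list's median was 0.08. This was a positive call, against 0.512% positive calls over all tested genes. Grm5 encodes the metabotropic glutamate receptor mGluR5. It was 107 to 148 CPM (median 117) in IS control and 80.6 to 105 CPM (median 98.7) in IS insulin, with all 7 insulin libraries below every control library. In ID pups it was 93.1 to 121 CPM (median 114) in control and 94.4 to 126 CPM (median 120) with insulin, and these groups overlapped. The interaction was 0.42 (SE 0.10, adjusted p = 0.0386), with -0.34 in IS pups (adjusted p = 0.0552) and 0.08 in ID pups (adjusted p = 0.542). Its call was kept in 18 of 32 fits with 1 library left out, and lost with the tissue covariates (0.36, adjusted p = 0.200) and with title number 69 (0.45, adjusted p = 0.0828) or 70 alone (0.39, adjusted p = 0.0910). None of 19 GABAergic and 12 neurotrophin genes was called, with medians of 0.03 and 0.05. Camk2a was at 0.06 (adjusted p = 0.802) and Bdnf at -0.09 (0.718).

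Immediate early genes, which neuronal activity induces, had 0 of 26 members called, with a median of -0.24. Of their values 21 were under 0, against 8147 of 15439 tested genes. In 8 of the 26 the unadjusted p was under 0.05, against 17.1% of all tested genes. Fos fell with insulin in ID pups (-0.79, adjusted p = 0.00434), was at -0.31 in IS pups (adjusted p = 0.325), and had an interaction of -0.48 (SE 0.22, adjusted p = 0.256). Egr2 likewise fell in ID pups (-1.03, adjusted p = 0.00889), was at -0.33 in IS pups (adjusted p = 0.490), and had -0.69 (SE 0.32, adjusted p = 0.260). Fos was 6.66 to 18.05 CPM among IS controls, 9.35 to 17.8 among ID controls, 8.14 to 13.5 among insulin-treated IS pups and 5.44 to 9.72 among insulin-treated ID pups. For these genes the insulin effect passed in ID pups and a difference between the diets was not shown.

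The same holds for iron uptake. Tfrc, the transferrin receptor gene, was at 117 ± 6.55, 169 ± 19.7, 127 ± 17.0 and 203 ± 17.4 CPM in IS control, ID control, IS insulin and ID insulin. It rose with insulin in ID pups (0.26, adjusted p = 0.0243), was at 0.12 in IS pups (adjusted p = 0.440), and had an interaction of 0.15 (SE 0.10, adjusted p = 0.462). On the list for uptake, storage and export of iron 0 of 22 genes had a called interaction, and their median was -0.01. The glucose transporter gene Slc2a1 was at -0.19 (SE 0.11, adjusted p = 0.390).

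**Figure D3:**
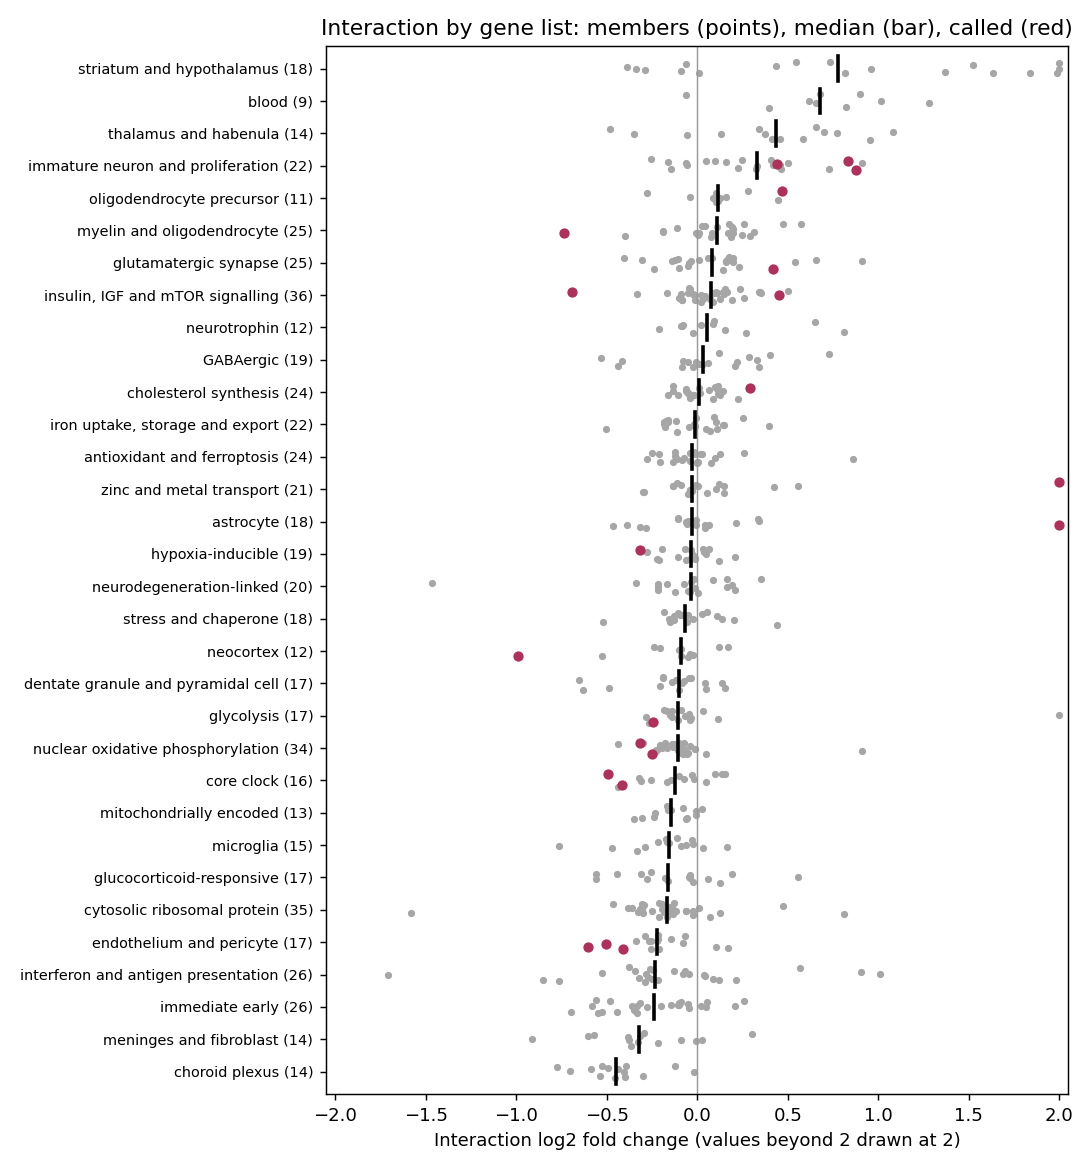
Interaction log2 fold change of each tested member of 32 gene lists (points; called in red; number tested in brackets), with the list median as a black bar and values beyond 2 drawn at 2. Medians run from -0.45 for choroid plexus, with 0 of 14 called, to 0.78 for striatum and hypothalamus, with 0 of 18 called.

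Lists of neighbouring tissue held 0 calls, with medians of -0.45 for choroid plexus, -0.32 for meninges and fibroblast, 0.68 for blood, 0.43 for thalamus and habenula, and 0.78 for striatum and hypothalamus. The choroid plexus median depended on the libraries used. It was -0.07 without IS insulin replicate 2, -0.71 with title number 69 alone and -0.13 with 70 alone. Single libraries stood out in ID insulin. The thalamus and habenula sum was 751.7 CPM in replicate 5 (next 363.1), and the striatum and hypothalamus sum 817.9 CPM in replicate 8 (next 329.8). Median sums of ID insulin and ID control libraries were 297 and 245.6 CPM on the first list and 251.1 and 248.7 CPM on the second. Of 12 neocortex genes 1 was called negative, against 0.427% of all tested genes. It was Lamp5, a membrane protein gene of a class of cortical interneurons. Lamp5 was at 42.4 ± 9.32, 53.5 ± 6.77, 64.3 ± 16.1 and 41.0 ± 15.7 CPM in IS control, ID control, IS insulin and ID insulin, with an interaction of -0.99 (SE 0.23, adjusted p = 0.0278). ID insulin replicate 1 was its highest library in that group, at 76.9 CPM, and also had the group's highest neocortex sum (602.9 CPM, the others 417.2 to 530.5). The call of Lamp5 was kept in 27 of 32 fits with 1 library left out, and lost with the tissue covariates (-0.90, adjusted p = 0.170) and with title number 69 (-1.03, adjusted p = 0.0776) or 70 alone (-0.94, adjusted p = 0.0910). Microglia (-0.16), interferon and antigen presentation (-0.23), glucocorticoid-responsive (-0.16), dentate granule and pyramidal cell (-0.10), stress and chaperone (-0.07), neurodegeneration-linked (-0.04) and antioxidant and ferroptosis genes (-0.03) had 0 calls each. Some of these depended on ID insulin replicate 3. Without it 3 of 20 neurodegeneration-linked genes were called positive and 2 negative, and 2 of 24 antioxidant and ferroptosis genes negative. The microglia, interferon and glucocorticoid lists then had 1 negative call each. Over all genes then tested, 2.35% were called positive and 1.50% negative.

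The remaining named genes belong to no list that held other calls. Thrsp, the thyroid hormone-responsive gene tied to fat synthesis, had one of the 5 lowest p. It was 11.8 to 18.8 CPM (median 14.7) in IS control and 13.03 to 22.1 CPM (median 16.6) in ID control. It was 16.9 to 20.4 CPM (median 19.4) in IS insulin and 7.60 to 15.4 CPM (median 12.2) in ID insulin. Every IS insulin library was above every ID insulin library, an order that the contrast favours and that was not counted over all tested genes. The interaction was -0.92 (SE 0.15, adjusted p = 0.00439), with -0.55 in ID pups (adjusted p = 0.00458) and 0.37 in IS pups (adjusted p = 0.111), and it was called in all 32 fits with 1 library left out. With title number 69 alone it was at -0.76 (adjusted p = 0.0556).

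Mphosph6, which encodes a cofactor of the RNA exosome in ribosomal RNA processing, had the same size of interaction (-0.92, SE 0.16, adjusted p = 0.00520), from 13.7 ± 2.02, 19.5 ± 2.42, 18.6 ± 3.86 and 13.98 ± 2.42 CPM in IS control, ID control, IS insulin and ID insulin. The other negative ones were the nucleoside transporter gene Slc28a2 (-1.41), the aldo-keto reductase gene Akr1c15 (-1.11), the clathrin adaptor subunit gene Ap1s3 (-1.07), Irak3, an inhibitor of Toll-like receptor signalling (-1.03), and the monooxygenase gene Moxd1 (-0.79). Their adjusted p ran from 0.0217 for Irak3 to 0.0449 for Slc28a2. In Akr1c15 all 8 ID insulin libraries, at most 5.81 CPM, were below every ID control library, at least 6.40 CPM. Without IS insulin replicate 2, Akr1c15 (-1.1) and Ap1s3 (-1) were not called (adjusted p = 0.0544 each). Slc28a2 was called in 14 of 32 fits with 1 library left out. With the tissue covariates Mphosph6 (-0.75), Irak3 (-0.87), Akr1c15 (-0.89), Slc28a2 (-1.21) and Moxd1 (-0.40) did not pass, with adjusted p from 0.109 for Mphosph6 to 0.262 for Moxd1. The last 4 were also lost with title number 69 alone, with adjusted p from 0.0963 for Irak3 to 0.150 for Slc28a2, and Ap1s3 with number 70 alone (-0.81, adjusted p = 0.0862).

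The other positive ones were the endosomal chloride and proton exchanger gene Clcn5 (1.18), Nhs, a regulator of actin remodelling (0.94), the basement membrane gene Fras1 (0.70), and Itpr2, a calcium release channel of the endoplasmic reticulum (0.68). With them came the lipid scramblase gene Xkr4 (0.67), St8sia4, which adds polysialic acid to the neural cell adhesion molecule (0.66), and Wnk3, a kinase that regulates chloride cotransporters (0.65). Their adjusted p ran from 0.0236 for Itpr2 to 0.0492 for Xkr4. Clcn5 spanned 2.90 to 4.30 CPM with insulin in IS pups and 3.91 to 11.6 CPM with insulin in ID pups, groups that overlapped, and in Itpr2 the same groups spanned 22.1 to 31.8 and 30.3 to 44.8 CPM. Itpr2 was called in all 32 fits with 1 library left out, and Xkr4, St8sia4, Fras1 and Nhs in 7, 8, 13 and 24 of them. With the tissue covariates Clcn5, Fras1, Xkr4, St8sia4 and Wnk3 did not pass, with adjusted p from 0.134 for Wnk3 to 0.183 for Xkr4. With title number 69 alone 0 of these 7 genes passed, with adjusted p from 0.0776 for Itpr2 to 0.132 for Fras1, and with number 70 alone Itpr2 did. Fras1, Xkr4, St8sia4 and the negative Slc28a2 were the 4 named calls lost with the Y-linked covariate, with adjusted p from 0.0516 for Fras1 to 0.0614 for Xkr4. No filter on low counts ended the calls of Xkr4, St8sia4 and Slc28a2.

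**Figure D4:**
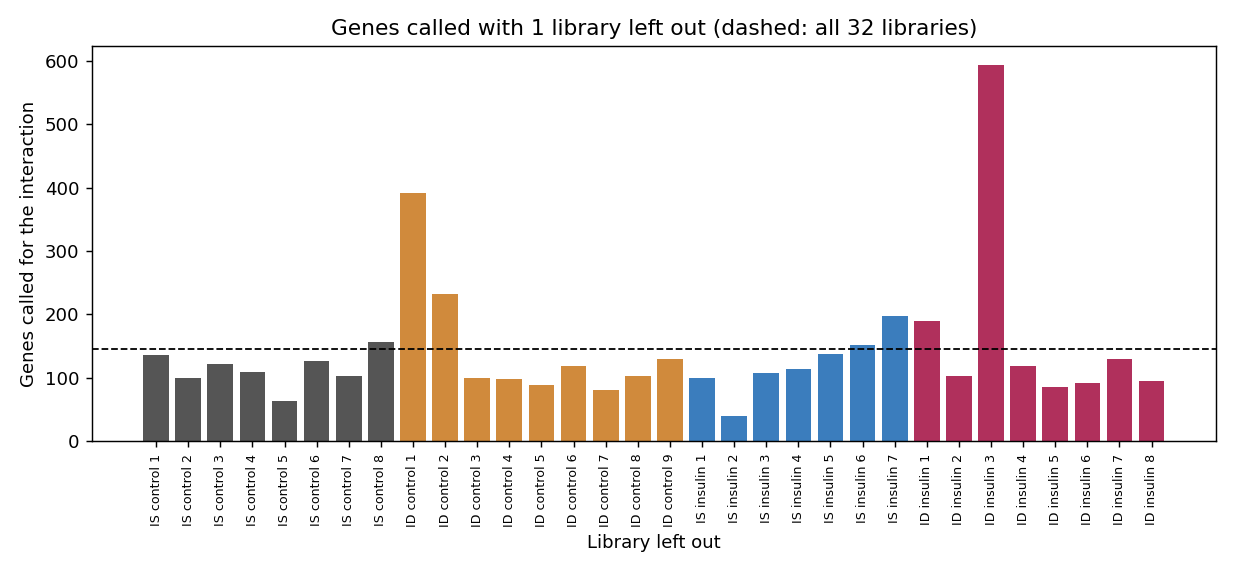
Number of genes called for the interaction (y axis) in each of 32 fits with 1 library left out (x axis, coloured by group), with the dashed line at the 145 genes called with all libraries. The count runs from 40 without IS insulin replicate 2 to 594 without ID insulin replicate 3.

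The number of called genes depended on single libraries and settings. It was between 40 and 594 when single libraries were left out, and with the second title number, the tissue list means or a part of ID control taken into account it was 9, 23, 12 (title number 69) and 124 (title number 70). Gpr17, Slc39a12 and Mki67 were the 3 of 35 called and named genes that passed in every one of the 13 settings and 32 such fits. Among the 13 is a 2 by 2 factorial coding of the main fit, which could not differ from it.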

How the data were processed

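RNA was measured by sequencing in 1 hippocampus from each of 32 rats. The authors deposited 1 table of read counts per gene with no normalization. Per the submitters' processing notes, the authors used Trimmomatic (version 0.40), FastQC, HISAT2 (version 2.1.0), featureCounts and edgeR, and the builds Rnor_6.0 and mm10 are listed without a role. Strand use and the treatment of reads that fit several places are not given in the sources used here, so overlapping, antisense and near-identical genes are uncertain.

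The table held 32883 genes, 9663 of them without a count, and 0 columns of other samples. A spreadsheet had turned 26 names into dates; these were tested and not named. Total counts were 19619345 to 28062630 per library, and the smallest chi-square per gene between any pair of libraries of a group was 5.97, so none was a copy. In R (version 4.3.3), edgeR (version 4.0.16) was used with TMM scaling, filterByExpr by group (15439 genes kept) and the quasi-likelihood F-test (glmQLFit with legacy off, glmQLFTest, two-sided) with 1 coefficient per group and no covariate (28 residual degrees of freedom). The Benjamini-Hochberg adjustment ran over all tested genes, and the threshold was 0.05. The SE of a log2 fold change is its size divided by the square root of F. CPM values use TMM-scaled totals, and group values are mean ± SD over libraries. The fit was also run on simulated counts whose planted changes were larger than most called interactions, so that run does not bear on small effects.

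The members and gene lists were chosen with earlier results of these data known. Named genes are the 10 largest positive and 10 largest negative called interactions among genes that have a symbol and average at least 1 in log2 CPM, the 5 with the lowest adjusted p, up to 3 called genes per list and 13 single genes whatever their result. Of the genes this gave, 1 is not reported here, though counts include it. List members with values that did not pass were named to show their lists. Alternatives were DESeq2 (version 1.42.0), limma voom (limma version 3.58.1) with quality weights, other scalings and filters, the means of 4 tissue lists or of the Y-linked list (for the sex of the pup) as covariates, parts of ID control, and single libraries left out. A 2 by 2 factorial coding, also counted among the 13 settings, restates the main model and must give the same calls. List values under the alternatives were added after seeing the data. Promoter sequences are RefSeq's for GRCr8, another assembly than the listed ones, so no other coordinates are given. Gene length and GC content were not used.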

Additional observations from a re-analysis of the deposited data

Results flagged for a closer look

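The 34 genes listed here are named genes whose insulin effect differed between the diets by the test of the difference itself (edgeR quasi-likelihood, Benjamini-Hochberg adjusted p under 0.05). The positive interaction log2 fold changes were 3.64 for Slc39a12, 1.18 for Clcn5, 0.94 for Nhs, 0.88 for Mki67, 0.84 for Cenpf, 0.70 for Fras1, 0.68 for Itpr2 and 0.67 for Xkr4. Those of St8sia4, Wnk3, Gpr17, Pdpk1, Dcx and Grm5 were 0.66, 0.65, 0.47, 0.45, 0.44 and 0.42. The negative ones were -1.53 for Prss12, -1.41 for Slc28a2, -1.11 for Akr1c15, -1.07 for Ap1s3, -1.03 for Irak3, -0.99 for Lamp5, -0.92 for Thrsp, -0.92 for Mphosph6, -0.79 for Moxd1 and -0.74 for Mal. Those of Eif4ebp1, Vtn, Slco1a4, Dbp, Nr1d1 and Itm2a were -0.69, -0.61, -0.50, -0.49, -0.41 and -0.41, and those of Ndufb10, Mxi1, Ndufa10 and Ldhb were -0.31, -0.31, -0.25 and -0.24.

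A single library stood far from the others of its group in 16 of 176 combinations of a named gene and a group, by Dixon's criterion at the 95% level, by which chance flags about 1 in 20 groups. These combinations share libraries and are not independent. IS control replicate 5 was the library in 7 of these. It was the highest of its group in Ap1s3 (5.99 CPM, next 4.33), Fras1 (43.8, next 30.1), Grm5 (148, next 126), Pdpk1 (67.3, next 54.6) and Xkr4 (27.7, next 20.2), and the lowest in Itm2a (71, next 99.3) and Vtn (21.8, next 29.9). IS insulin replicate 2 was the highest in Egr2 (7.45 CPM, next 4.25) and the lowest in Itpr2 (22.1, next 27.8). ID control replicate 1 was the highest in Itpr2 (42.7 CPM, next 31.8) and the lowest in Ndufb10 (64.4, next 75.5). ID insulin replicate 3 was the highest in Mbp (13600 CPM, next 10100) and the lowest in Pdpk1 (42.5, next 50.1). In Lamp5, ID insulin replicate 1 (76.9 CPM, next 48.9) and IS control replicate 6 (63.1, next 44.7) were the highest, and in Tfrc IS insulin replicate 1 was (165 CPM, next 127). Without IS control replicate 5 the interaction called 63 genes in place of 145.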

How the results depend on the processing

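The 145 genes called for the interaction became 423 with DESeq2 (144 shared), 491 with limma voom (140 shared), 94 with no filter on low counts (88 shared), 23 with the tissue list means as covariates (21 shared), 12 with ID control of title number 69 alone (11 shared), and 433 without ID insulin replicates 3 and 5 (140 shared). The 589 genes of insulin in ID pups became 22, 150 and 358 in the last 3 of these and 232 with title number 70 alone. The 19 genes of insulin in IS pups became 206 with DESeq2, 0 with number 69 alone, 37 with number 70 alone and 58 without ID insulin replicates 3 and 5. The share of positive calls, 54.5%, was 66.7% with number 69 alone and 43.5% with the covariates. In all these settings the cause was not tested.

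Over 32 fits with 1 library left out, the counts ran from 40 to 594 for the interaction, 323 to 806 for insulin in ID pups and 0 to 92 for insulin in IS pups. The interaction count moved by over 1.5 times in 10 of them: to 391, 232, 89 and 81 without ID control replicates 1, 2, 5 and 7, to 63 without IS control replicate 5, to 40 without IS insulin replicate 2, and to 594, 86, 91 and 94 without ID insulin replicates 3, 5, 6 and 8. The positive share was 67.0% without ID control replicate 1 and 42.5% without IS insulin replicate 2.

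The second title number as a replicate block left 9 interaction calls (6 shared; 44.4% positive) and 0 for insulin in IS pups. For insulin in ID pups it gave 703 calls (385 shared). What these numbers mean is not stated, and correlations over all genes cannot settle whether they mark something the libraries share. Deviations from the group means correlated at a median of 0.00336 over 40 pairs with the same number (-0.195 to 0.25). For pairs of other numbers the median was 0.00381, and 2 of 30 libraries were closest to their own number.

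Of the 35 called and named genes, 16 were called in all 32 fits with 1 library left out, 34 with DESeq2 size factors, 35 with DESeq2, 35 with limma voom, 11 with the covariates, 6 with number 69 alone, 20 with number 70 alone and 5 with the block. Of the 9 named genes not called, 0 passed anywhere. The sign turned in Camk2a (-0.03 with number 70 alone) and Mbp (0.00 without ID insulin replicates 3 and 5), which passed nowhere. List medians moved by more than 1 SD between libraries of a group in 11 of 1440 cases and by less in 1429. Most of these cases leave out 1 library, which can shift a median only by a part of that SD. The counts thus cannot show that the list medians are stable.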

Other observations

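Other genes called for the interaction lie outside the naming rule and were chosen after their values were seen. They are given as single genes, with no list or test behind their choice. They were Ptpro, a receptor phosphatase (0.55, SE 0.10, adjusted p = 0.00520), the extracellular matrix gene Tnr (0.52), the teneurin gene Tenm4 (0.52), the protocadherin gene Pcdh17 (0.46), the semaphorin genes Sema6d (0.41) and Sema6a (0.39), Nfasc of the axon initial segment and node (0.36) and the cadherin gene Celsr3 (0.35). Their adjusted p values by edgeR's quasi-likelihood test were between 0.00520 and 0.0499. Insulin differences in ID and IS pups were 0.36 and -0.19 for Ptpro, 0.31 and -0.10 for Sema6d and 0.18 and -0.34 for Tenm4. Ptpro, Sema6d, Sema6a, Pcdh17, Nfasc and Celsr3 were called for insulin in ID pups, Tnr and Tenm4 in neither diet.

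A few more genes were also chosen after their values were seen. Dpysl3, Srrm4, Tbc1d24, Tdp2 and Pnp had the larger insulin difference in IS pups, and Sun2, Ctsa and Pltp in ID pups. Dpysl3, a phosphoprotein of growth cones, was at -0.38 in IS (adjusted p = 0.0282) and 0.05 in ID pups, the splicing factor gene Srrm4 at -0.46 (adjusted p = 0.0457) and 0.13, and Tbc1d24 at -0.31 (adjusted p = 0.0440) and 0.08. Tdp2, a DNA repair enzyme gene, was at 0.36 in IS (adjusted p = 0.0373) and -0.11 in ID pups. Pnp, purine nucleoside phosphorylase, was at 0.28 (adjusted p = 0.0416) and -0.05. Sun2 of the nuclear envelope was at -0.48 in ID (adjusted p = 8.28e-06) and -0.05 in IS pups. The lysosomal carboxypeptidase gene Ctsa was at -0.13 in ID (adjusted p = 0.0226) and 0.10 in IS pups (adjusted p = 0.157), and the lipid transfer gene Pltp at -0.35 (adjusted p = 0.00434) and 0.15 (adjusted p = 0.293).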
